A study of Mus musculus with 6 samples.

Results

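The genes described here are 33 genes of the lysosome, taken by symbol from the TPM table of 56448 genes (TPM is a transcript level corrected for gene length and for the total of its library). They comprise 10 proteases, 10 enzymes of glycan and lipid breakdown and their helpers, 4 membrane glycoproteins, 3 genes of cholesterol export and ion release, 4 genes of sorting, and the transcription regulators Tfeb and Tfe3. All 33 symbols were found, each in 1 row. Messenger RNA was sequenced from the mouse line 4T1, an established mammary carcinoma line grown in medium with serum. The series describes lentiviral infection to give stable knockdown of the microRNA miR-9, with a control group. There were 6 libraries, 3 with the genotype label LV2 and 3 with the genotype label in9, both from 4T1. Neither label is spelled out, the control group is not named in the labels, and it is not said whether a line is 1 clone or whether replicates were separate cultures. Each difference is therefore given as in9 minus LV2, and the p-values reflect the spread among these libraries alone, which may be technical.

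Lysosomes are acidic compartments in which proteins, glycans, lipids and glycogen are broken down. Most of their soluble enzymes are made in the endoplasmic reticulum and carry mannose 6-phosphate, which receptors in the Golgi apparatus bind to send them to endosomes. The transcription factors TFEB and TFE3 bind an E-box element, known as CLEAR, near the start of many lysosomal genes, and in tumour cells several cathepsins are known to be secreted as well as kept in the lysosome.

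Because the study concerns miR-9, matches to its seed were sought in 1 annotated 3' UTR per gene, the longest (GENCODE M21, mm10). The mature sequence from RefSeq (GRCm38.p6) is shown with the seed, bases 2 to 8, in capitals.
mmu-miR-9-5p: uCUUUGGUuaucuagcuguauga
A site was the 8-base match ACCAAAGA or either 7-base match within it, ACCAAAG or CCAAAGA. Of the 30 members whose level could be tested, 6 held a site, or 20%, against 22.1% of 10999 tested genes with a 3' UTR. Gaa, Npc2 and Psap, whose levels differed most clearly between the groups by the test used, held none. The 8-base match was found in Lipa, and M6pr, Lamp1, Tpp1 and Ctsc each held a 7-base match. Npc1 also held a 7-base match, and Sort1, which was almost silent here, held 3. The sites are shown with the match in capitals and up to 8 flanking bases, since they are the letters through which a seed could pair with these transcripts.
Lipa, 3' UTR position 874: tctagaaaACCAAAGAcaaaggag
M6pr, 3' UTR position 41: gtccccaaACCAAAGcatactca
Lamp1, 3' UTR position 237: aatatgttACCAAAGtagagctc
Tpp1, 3' UTR position 786: tcagctacACCAAAGcaacattc
Ctsc, 3' UTR position 1306: tatcaaccCCAAAGAaatcccct
The 6 tested members with a site had a median log2 fold change of 0.14 and the 24 without one of 0.19. Over all tested genes with a 3' UTR these medians were 0.08 and 0.06. Mature miR-9 is not measured in messenger RNA libraries, so the sites are a description of sequence.

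The promoter windows in RefSeq (GRCm38.p6), from 250 bases before to 50 after a transcription start, were available for 27 of the 33 members. The E-box core CACGTG, which reads the same on both strands, was found in 8 of these 27, or 29.6%, against 8.09% of all 27025 genes with a window and 12.1% of 9188 tested genes. A gene with several windows counted once, if any of them held the motif. The longer forms contain the shorter ones. TCACGTG on either strand was in 7 members (25.9%, against 4.29% of all genes and 7.23% of tested genes), TCACGTGA in 4 (14.8%, against 1.12% and 2.32%), and the full CLEAR-type palindrome GTCACGTGAC in Igf2r alone (3.7%, against 0.37% and 0.882%). Outside the members, of 12 genes with a window for the proton pump that acidifies the lysosome, 4 held the core (33.3%) and 3 held TCACGTGA (25%). Windows of the members Ctsa, Ctsd, Ctsl, Gaa, Glb1, Igf2r, Lamp1 and Mcoln1 held the core. The windows of 4 genes are shown, with each core in capitals, because their genes had high levels or large changes and because they differ in how many cores they hold.
Gaa, chr11:119267713-119268012, plus strand, 1 core: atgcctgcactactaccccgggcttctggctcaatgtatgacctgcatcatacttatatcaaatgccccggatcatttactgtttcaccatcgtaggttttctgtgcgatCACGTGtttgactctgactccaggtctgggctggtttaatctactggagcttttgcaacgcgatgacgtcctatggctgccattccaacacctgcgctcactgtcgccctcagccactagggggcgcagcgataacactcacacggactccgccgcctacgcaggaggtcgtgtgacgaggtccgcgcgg
Ctsa, chr2:164833523-164833822, plus strand, 2 cores: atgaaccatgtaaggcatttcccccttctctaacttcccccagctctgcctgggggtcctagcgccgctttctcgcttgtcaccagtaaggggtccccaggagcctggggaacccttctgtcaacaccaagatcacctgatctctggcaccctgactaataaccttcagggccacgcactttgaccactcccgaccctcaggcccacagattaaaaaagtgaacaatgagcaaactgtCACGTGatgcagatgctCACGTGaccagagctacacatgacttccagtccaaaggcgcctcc
Ctsd, chr7:142387778-142388077, minus strand, 2 cores: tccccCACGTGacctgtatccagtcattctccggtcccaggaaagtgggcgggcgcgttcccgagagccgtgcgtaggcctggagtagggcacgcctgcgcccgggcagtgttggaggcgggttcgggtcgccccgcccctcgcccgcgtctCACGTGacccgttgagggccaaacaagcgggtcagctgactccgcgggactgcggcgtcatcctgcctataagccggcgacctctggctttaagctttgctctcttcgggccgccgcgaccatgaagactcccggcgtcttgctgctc
Lamp1, chr8:13158911-13159210, plus strand, 4 cores: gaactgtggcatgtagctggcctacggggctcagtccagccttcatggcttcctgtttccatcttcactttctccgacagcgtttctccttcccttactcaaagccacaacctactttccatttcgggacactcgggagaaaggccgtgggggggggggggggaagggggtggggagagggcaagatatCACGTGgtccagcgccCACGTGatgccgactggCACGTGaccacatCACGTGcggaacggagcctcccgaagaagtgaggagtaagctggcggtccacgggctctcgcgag
The 4 cores of Lamp1 begin 61, 45, 28 and 15 bases before the start site. Ctsa has 2 windows, and the one at its annotated gene start, chr2:164832622-164832921, holds no core. In the window shown, at a start farther downstream, one core begins 12 bases before the start site and the other 5 bases after it. A core is a string of letters in these windows and was not tested as a binding site.

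The levels of the members ran from almost silent to the highest level, that of Ctsl. The cysteine protease gene Ctsl (cathepsin L) stood far above the rest, at 2197 to 2296 TPM across LV2 and 2513 to 2689 TPM across in9. It held 41.0% to 42.6% of the summed TPM of the 33 genes in LV2 and 42.6% to 44.6% in in9. Next came Cd63, which encodes a tetraspanin of late endosomes, at 584 to 682 TPM over the 6 libraries, and Lamp1, which encodes an abundant glycoprotein of the lysosomal membrane, at 346 to 359 TPM. Ctsb (cathepsin B) and Npc2, a carrier of cholesterol in the lysosome, lay near 300 TPM.

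At the other end were 3 members below a mean of 1 TPM, which were not tested. Sort1, the gene of the sorting receptor sortilin, was at 0.01 to 0.05 TPM in the 6 libraries. Ctsk (cathepsin K, a protease known from osteoclasts) was at 0 to 0.5 TPM, and Ctss (cathepsin S, known from antigen-presenting cells) was listed at 0 in 4 libraries and at 0.06 TPM in the others. All 3 were low in both groups, and each of the 30 tested members had a mean of at least 4.1 TPM in both. The plot of levels shows both ends.

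**Figure D1:**
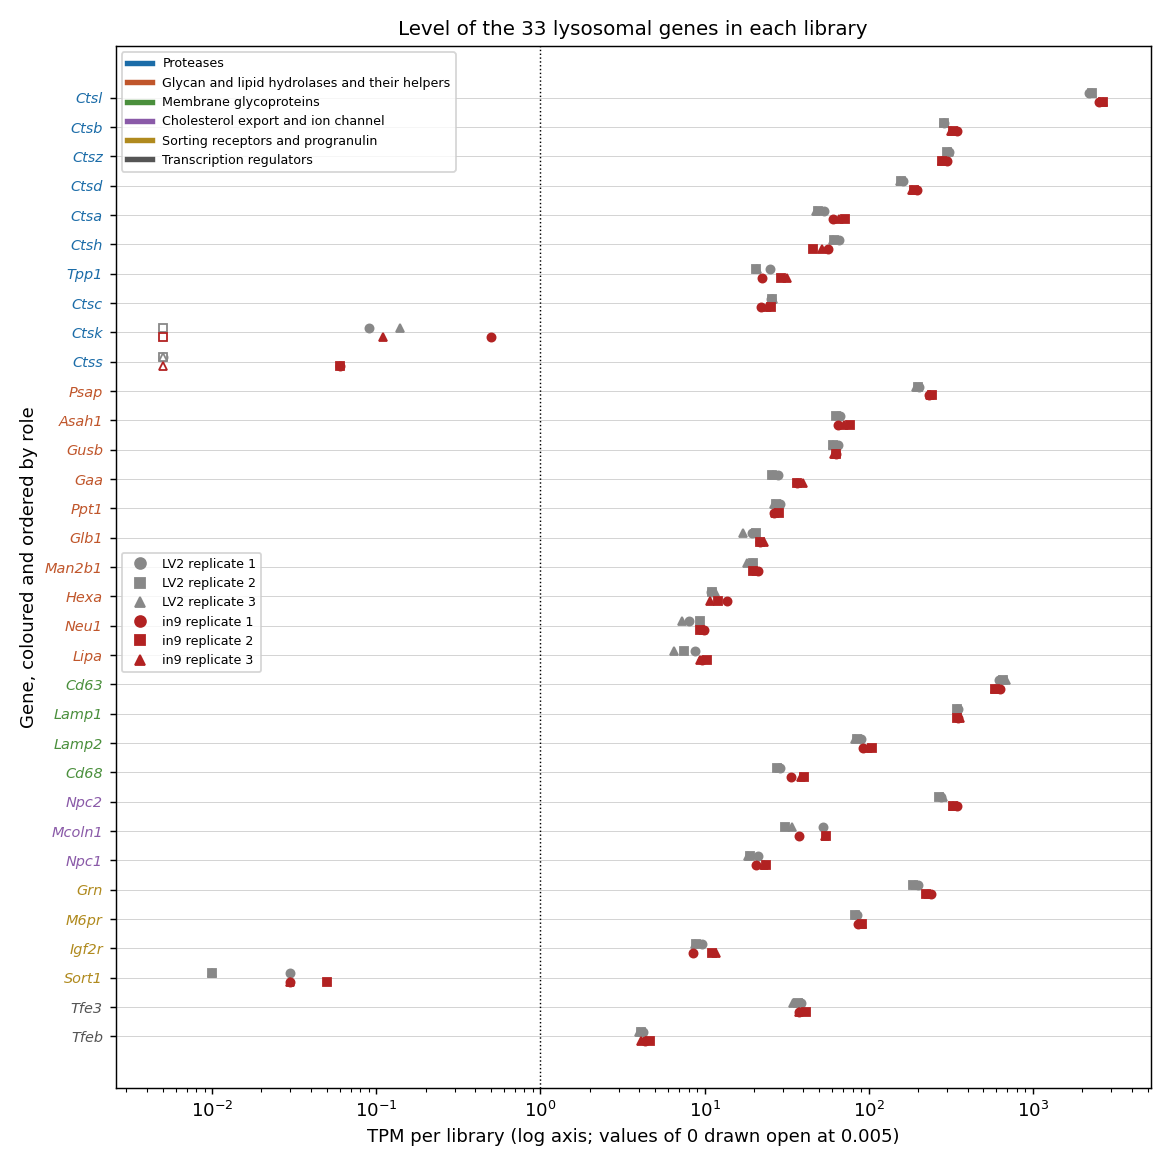
TPM of each of the 33 lysosomal genes (rows, coloured by role) in each library on a log axis, with LV2 in grey, in9 in red and the replicate number as the marker shape, and with a dotted line at 1 TPM. Ctsl lies highest, at 2197 to 2689 TPM, and Sort1, Ctsk and Ctss lie below 1 TPM in every library.

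The libraries were first checked for the cell type and for libraries that stand apart. All 10 epithelial markers of a mammary carcinoma line were tested, with summed TPM of 2422 to 2479 in LV2 and 2324 to 2375 in in9. Of 10 macrophage markers 8 were below a mean of 1 TPM, with Adgre1 and Tyrobp at 0 in every library, and the summed level ran from 20.8 to 25.2 TPM in LV2 and from 19.7 to 21.2 TPM in in9, nearly all of it from Cd14 and Mrc1. Of 7 fibroblast markers 6 were below that mean (Lum at 0 in every library), and the sum of 4.74 to 6.76 TPM in LV2 and 7.95 to 8.43 in in9 came almost wholly from Pdgfra. Of 5 endothelial markers 4 were below it (Emcn at 0), with sums of 1.72 to 1.95 and 1.97 to 2.17 TPM. On the first principal component in9 replicate 1 lay at -2.7, apart from the other in9 libraries at 26.1 and 27.8. LV2 replicate 1 lay at -7.0, nearest to in9 replicate 1 and apart from the other LV2 libraries at -22.0 and -22.2. Across tested genes the Pearson correlation was 0.9685 to 0.9741 between libraries of a group and 0.9650 to 0.9731 between groups. Mitochondrial transcripts held 5.90% to 6.01% of all TPM in LV2 and 6.42% to 7.64% in in9. TPM carries no read number, so the depth of each library is unknown.

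The comparison asked whether the messages of the lysosome differed between in9 and LV2 cells. Most members were somewhat higher in in9, and 3 passed the test: Gaa, the acid alpha-glucosidase that degrades glycogen, Npc2, and Psap, the precursor of the saposins that help enzymes act on sphingolipids. Of the 30 tested members 3 rose (10%), against 0.821% of all 13406 tested genes, and none fell, against 0.194% (limma, Benjamini-Hochberg adjusted p under 0.05). At an unadjusted p under 0.05, 12 were higher (40%, against 13.6% of all genes) and 1 was lower (3.33%, against 5.86%). The median log2 fold change, on the log2(TPM + 1) scale, was 0.19 over the tested members and 0.06 over all tested genes. A positive sign was seen in 25 of 30 (83.3%), against 63.7%. In 14 members every in9 library lay above every LV2 library (46.7%, against 17.4%), and in 2 every in9 library lay below (6.67%, against 8.08%). In bulk RNA a change in the number of cells that make a message and a change per cell cannot be told apart.

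These calls depended on which libraries and which scaling were used. The count of 3 higher members was 10, with 1 lower, when in9 replicate 1 was left out, and 0 when any one of the other libraries was. Leaving out in9 replicate 1 also raised the calls over all genes, to 971 higher (7.25%) and 509 lower (3.8%). All 3 calls ended without the filter on low values (Gaa adjusted p = 0.0702, Npc2 0.0818, Psap 0.0799), without the intensity trend (0.0696, 0.104 and 0.109) and with the replicate block (0.234, 0.234 and 0.235), with the same fold changes. The count was 1 (Gaa) after trimmed-mean scaling between libraries, where 0.328% of all genes were higher, the median over the members was 0.11 and that over all genes -0.02. With that scaling 44 genes of the whole table were higher and 24 lower (64.7% higher), against 110 and 26 (80.9%) without it, and 23 of 30 members were positive, against 46.6% of all genes.

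**Figure D2:**
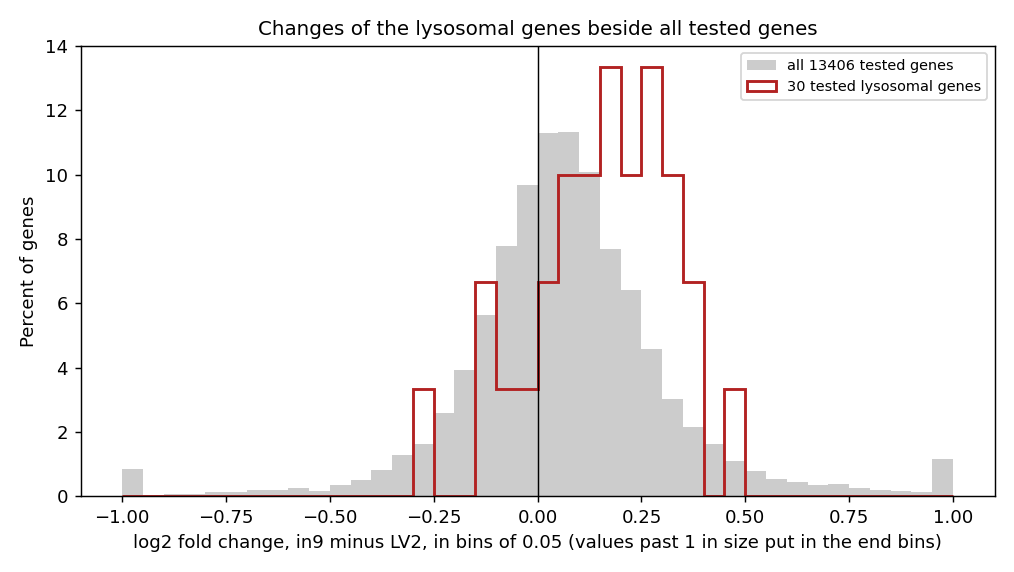
Percent of genes (y axis) by log2 fold change of in9 minus LV2 in bins of 0.05 (x axis), for all 13406 tested genes in grey and the 30 tested lysosomal genes as the red outline. The lysosomal genes have a median of 0.19 and range from -0.28 to 0.48, against a median of 0.06 over all genes.

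The summed TPM of the 33 genes was 5353, 5394 and 5427 in the LV2 libraries and 5900, 6028 and 5993 in the in9 libraries. The groups did not overlap, and the ratio of the in9 to the LV2 mean was 1.11. Without Ctsl the sums were 3098 to 3156 TPM across LV2 and 3325 to 3387 TPM across in9, a ratio of 1.07. By role the ratio was 1.13 for the proteases, 1.15 for the glycan and lipid enzymes, 1.21 for Npc1, Npc2 and Mcoln1 together, and 0.98 for the 4 membrane glycoproteins. A score over chosen genes was given no test.

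**Figure D3:**
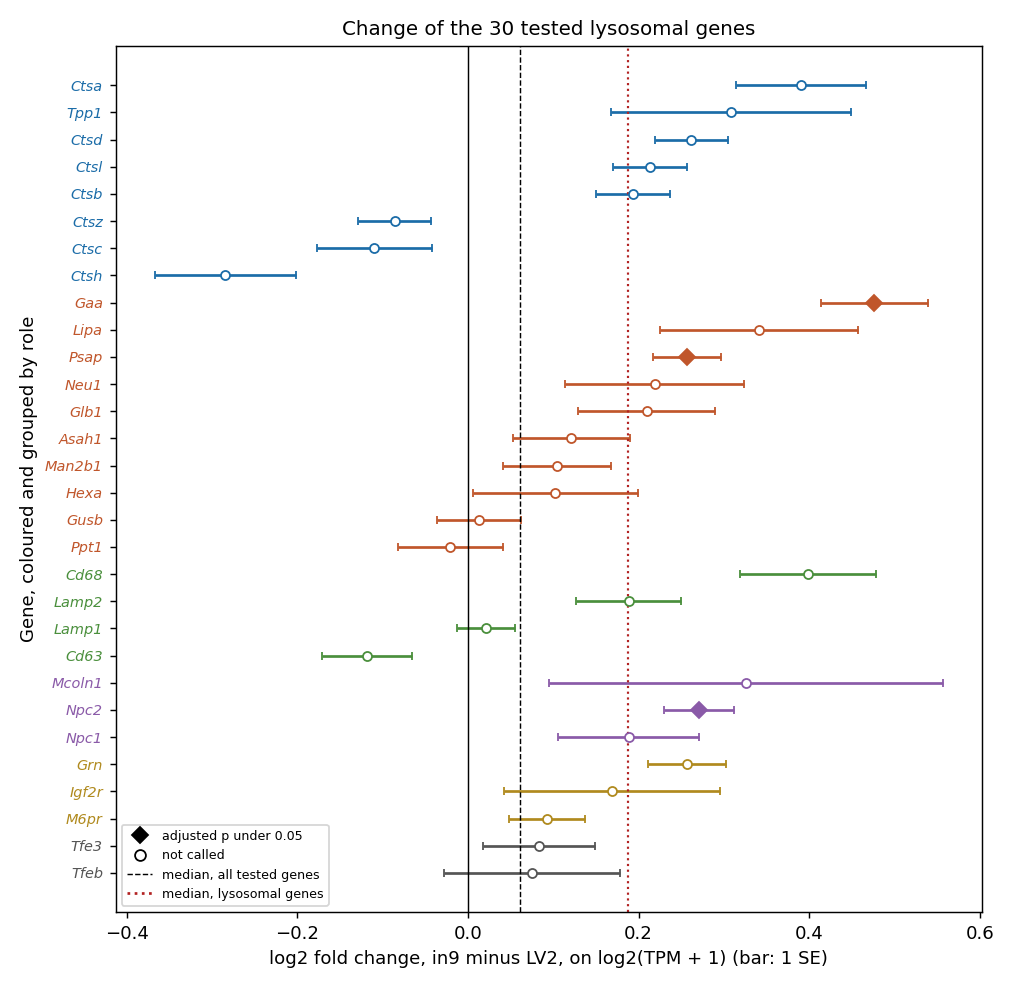
Log2 fold change of in9 minus LV2 (x axis, bars of 1 SE) for each of the 30 tested genes (rows, coloured by role), with filled diamonds for an adjusted p under 0.05, a dashed line at the median of all tested genes (0.06) and a dotted line at the median of the lysosomal genes (0.19). Gaa, Psap and Npc2 are the filled points, and Ctsh lies farthest to the left at -0.28.

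Of the 8 tested proteases 5 had positive (62.5%, against 63.7% of all tested genes) and 3 negative values, and none was called (limma). At an unadjusted p under 0.05, 4 were higher (50%, against 13.6% of all genes) and 1 was lower (12.5%, against 5.86%). Ctsd, the gene of the aspartic protease cathepsin D, was at 162, 157 and 155 TPM in LV2 and 196, 188 and 184 TPM in in9. All in9 libraries lay above all LV2 libraries, with a log2 fold change of 0.26 ± 0.04 (SE) and an adjusted p of 0.0541. Ctsl was at 2197, 2296 and 2293 TPM in LV2 and 2513, 2689 and 2667 TPM in in9, again without overlap (0.21 ± 0.04, adjusted p = 0.0761 in limma).

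Ctsb was at 286, 288 and 287 TPM in LV2 and 345, 324 and 316 TPM in in9, so that the LV2 libraries were nearly equal and the in9 libraries all higher (0.19 ± 0.04, adjusted p = 0.0958 in limma). Ctsa, the gene of the serine carboxypeptidase that also shields beta-galactosidase and neuraminidase, was at 53.2, 49.1 and 47.7 TPM in LV2 and 60.6, 71.5 and 65.7 TPM in in9. Its log2 fold change of 0.39 ± 0.08 was the largest among the proteases, with an adjusted p of 0.0709 in limma. Without in9 replicate 1 these 4 genes passed the test, with adjusted p of 0.0235, 0.0134, 0.0316 and 0.0228 for Ctsd, Ctsl, Ctsb and Ctsa, in a fit that called 7.25% of all genes higher. With any other library left out none of them passed. The adjusted p was then 0.125 to 0.235, 0.196 to 0.255, 0.19 to 0.289 and 0.137 to 0.249 in the same order. Tpp1, which removes tripeptides, overlapped between groups, at 20.4 to 24.9 TPM across LV2 and 22.4 to 31.7 TPM across in9. It was called without in9 replicate 1 (adjusted p = 0.0478), but not when any other library was left out.

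Ctsh, the aminopeptidase cathepsin H, went the other way. It was at 66.3, 61.2 and 60.5 TPM in LV2 and 56.2, 46.1 and 52.0 TPM in in9, a log2 fold change of -0.28 ± 0.08 (adjusted p = 0.144 in limma, and 0.0419 without in9 replicate 1). The fit without in9 replicate 1 called 3.8% of all genes lower. With any other library left out the adjusted p of Ctsh was 0.271 to 0.333. Each in9 library was below each LV2 library. Ctsc, the dipeptidyl peptidase that activates granule proteases, was also without overlap, at 25.5 to 26.2 TPM across LV2 and 22.1 to 25.4 TPM across in9, but its difference of -0.11 ± 0.07 was small (adjusted p = 0.413). Ctsz (cathepsin Z), with 298 to 309 TPM across LV2 and 281 to 300 TPM across in9, overlapped. The negative values of these 3 genes kept their sign in all 15 alternatives.

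Reads of some of these genes may be shared with neighbours, since no source used here says whether strand was used in counting. Ctsb shares 774 exonic bases with Fdft1 on the opposite strand, which was at 44.4 to 46.5 TPM across LV2 and 49.7 to 53.4 TPM across in9. Ctsd shares 808 exonic bases with the gene model Gm49369 on its own strand, at 0 to 3.22 TPM. Ctsa overlaps Pltp and Neurl2 on the opposite strand, at 2.53 to 5.49 TPM. Outside the proteases, some neighbours on the opposite strand were more abundant than the member. Ppt1 shares 129 exonic bases with Cap1, at 286 to 306 TPM, and Npc1 shares 511 with Rmc1, at 36.6 to 52.7 TPM. Glb1 shares 165 exonic bases with Tmppe on its own strand, at 8.75 to 11.1 TPM. The part of these overlaps in the values was not tested.

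Among the glycan and lipid enzymes 2 of 10 were called higher, against 0.821% of all tested genes, and 9 of 10 had a positive log2 fold change, against 63.7%. Gaa (ENSMUSG00000025579, chromosome 11, positions 119267887 to 119285454, mm10) was at 28.1, 25.8 and 26.2 TPM in LV2 and 36.5, 36.5 and 39.6 TPM in in9. The groups were far apart relative to their spread, and the means were 26.7 ± 1.25 and 37.6 ± 1.78 TPM (SD, n = 3). Its log2 fold change of 0.48 ± 0.06 (SE) was the largest of all tested members (adjusted p = 0.0388 in limma). Leaving out any library other than in9 replicate 1 ended the call, with adjusted p of 0.101 to 0.19, while the fold change stayed between 0.44 and 0.51.

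Psap (ENSMUSG00000004207, chromosome 10, positions 60277627 to 60302597) was at 203, 199 and 193 TPM in LV2 and 232, 243 and 236 TPM in in9. Every in9 library was higher, with a log2 fold change of 0.26 ± 0.04 and an adjusted p of 0.0473 in limma. After trimmed-mean scaling the difference was 0.175 and the adjusted p 0.113, and when any library except in9 replicate 1 was left out the adjusted p was 0.121 to 0.214.

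Lipa, the acid lipase that splits cholesteryl esters and the gene with the 8-base miR-9 match, was at 8.69, 7.49 and 6.47 TPM in LV2 and 9.63, 10.4 and 9.33 TPM in in9. The groups did not overlap, but the LV2 libraries were spread widely (0.34 ± 0.12, adjusted p = 0.189 in limma). Glb1, the beta-galactosidase, was at 19.5, 20.6 and 17.2 TPM in LV2 and 21.9, 21.7 and 23.0 TPM in in9 (0.21 ± 0.08, adjusted p = 0.225). The remaining enzymes had values of 0.22 for the sialidase Neu1, 0.12 for the ceramidase Asah1, and 0.10 for both the mannosidase Man2b1 and the hexosaminidase subunit Hexa, none called. Gusb, the beta-glucuronidase often used as a reference gene, had a difference of 0.01, which was -0.07 under trimmed-mean scaling and -0.02 under quantile normalization. Ppt1, the palmitoyl-protein thioesterase, had -0.02, which turned to 0.008 with library weights. Their adjusted p were 0.904 and 0.875 in limma.

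None of the 4 membrane glycoproteins was called in limma, with 2 higher at an unadjusted p under 0.05 (50%, against 13.6% of all genes). Cd68, a LAMP-family protein best known from macrophages, was at 28.8, 27.5 and 28.3 TPM in LV2 and 33.6, 40.6 and 38.7 TPM in in9. The in9 libraries were all higher (0.40 ± 0.08, adjusted p = 0.0744 in limma, and 0.0134 without in9 replicate 1). The fit without in9 replicate 1 called 7.25% of all genes higher. With any other library left out the adjusted p of Cd68 was 0.167 to 0.255. Of the 10 macrophage markers 8 were below a mean of 1 TPM, with Adgre1 and Tyrobp at 0 in every library and Ptprc at 0.12 TPM or less. The other two were detected: Cd14 at 17.6 to 21.5 TPM among LV2 and 15.8 to 17.0 TPM among in9, and Mrc1 at 2.33 to 3.10 TPM among LV2 and 3.43 to 3.85 TPM among in9. Each Mrc1 value of in9 was thus above each of LV2, as for Cd68 (ratio of means 1.29), and each Cd14 value was below. The part of such cells in the Cd68 values was not tested.

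Lamp2, the other major membrane glycoprotein, with a known part in chaperone-mediated autophagy, was at 90.2, 85.3 and 82.8 TPM in LV2 and 92.1, 104 and 98.6 TPM in in9 (0.19 ± 0.06, adjusted p = 0.176). Lamp1, with 4 E-box cores in its window, was at 348, 347 and 346 TPM in LV2 and 351, 347 and 359 TPM in in9. Its groups overlapped, and its log2 fold change of 0.02 ± 0.03 turned to -0.06 after trimmed-mean scaling (adjusted p = 0.759 in limma). Cd63 was at 620, 656 and 682 TPM in LV2 and 632, 584 and 587 TPM in in9, a difference of -0.12 ± 0.05 with overlap of 1 library (adjusted p = 0.28).

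Of the 3 genes of cholesterol export and ion release, Npc2 alone was called, and it rose. It lies on chromosome 12 (ENSMUSG00000021242, positions 84754562 to 84773152) and was at 274, 270 and 283 TPM in LV2 and 344, 326 and 328 TPM in in9. The lowest in9 library was well above the highest LV2 library, and the log2 fold change was 0.27 ± 0.04 (adjusted p = 0.0459 in limma). After trimmed-mean scaling it was 0.19, with an adjusted p of 0.194, and when any library except in9 replicate 1 was left out the adjusted p was 0.137 to 0.214.

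Npc1, the membrane partner that takes cholesterol from NPC2, was at 21.04, 19.0 and 18.5 TPM in LV2 and 20.5, 23.6 and 23.1 TPM in in9. One in9 library lay within the LV2 range, and the gene was not called (0.19 ± 0.08, adjusted p = 0.276 in limma). Mcoln1, the calcium channel of the lysosomal membrane, had the largest standard error of the 30 tested members. Its TPM was 52.9, 30.9 and 33.9 in LV2 and 37.6, 54.8 and 53.9 in in9, so that LV2 replicate 1 was near the high in9 libraries and in9 replicate 1 near the low LV2 libraries (0.33 ± 0.23, adjusted p = 0.472).

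The receptors that deliver enzymes to the lysosome had small differences. M6pr, the cation-dependent mannose 6-phosphate receptor, was at 85.0, 82.8 and 83.9 TPM in LV2 and 86.2, 91.5 and 90.9 TPM in in9, without overlap but with a difference of only 0.09 ± 0.04 (adjusted p = 0.305 in limma). Igf2r, the cation-independent receptor, was at 8.74 to 9.67 TPM across LV2 and 8.50 to 11.8 TPM across in9 (0.17 ± 0.13, adjusted p = 0.50). Grn, the gene of progranulin, a secreted glycoprotein that lysosomal proteases cleave into granulins, was at 199, 187 and 192 TPM in LV2 and 239, 223 and 230 TPM in in9. All its in9 libraries were higher (0.26 ± 0.05, adjusted p = 0.0609 in limma, and 0.0299 without in9 replicate 1). The fit without in9 replicate 1 called 7.25% of all genes higher, and Grn was not called when any other library was left out.

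The regulators of the lysosomal programme showed no called difference. Tfeb was at 4.20, 4.09 and 4.00 TPM in LV2 and 4.36, 4.64 and 4.12 TPM in in9, and its log2 fold change of 0.08 ± 0.10 (adjusted p = 0.716 in limma) turned to -0.05 after quantile normalization. Tfe3 was more abundant, at 38.4, 36.8 and 34.8 TPM in LV2 and 37.8, 41.5 and 37.5 TPM in in9 (0.08 ± 0.07, adjusted p = 0.517). The groups overlapped for both. Their proteins are known to be controlled by phosphorylation and entry into the nucleus, which messenger RNA does not show. Among the tested members with a promoter window, the 8 with an E-box core had a median log2 fold change of 0.24 and the 17 without one of 0.11. Over all tested genes with a window these medians were 0.05 and 0.06. The proton pump genes, of which 4 of 12 with a window held the core, had a median of 0.04 over the 17 tested. No test was made of these differences. Gaa and Ctsd held 1 and 2 cores, Ctsa held 2 at its downstream start and none at its annotated start, Lamp1 with 4 cores had a difference of 0.02, and Npc2 and Psap had no core in their windows.

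The members differed in how their in9 libraries were ordered. Of the 12 members higher at an unadjusted p under 0.05, in9 replicate 1 was the lowest in9 library for 6 (tied in Gaa) and the highest for 4, namely Ctsb, Ctsd, Npc2 and Grn. Set against the LV2 mean, the tested members had a median difference of 0.08 in in9 replicate 1, 0.19 in replicate 2 and 0.21 in replicate 3, against 0.00, 0.08 and 0.09 over all tested genes. In LV2 replicate 1 it was 0.04 and in the other LV2 libraries -0.01 and -0.03, against 0.03, -0.01 and -0.03 over all tested genes. Of the 30 tested members 23 lay above the LV2 mean in LV2 replicate 1 and 8 in each other LV2 library. In in9 replicates 1, 2 and 3 the counts were 23, 25 and 23, so LV2 replicate 1 reached the count of in9 replicates 1 and 3. In 20 members all 3 in9 libraries were above the LV2 mean and in 4 all were below. The matching shares over all tested genes were not counted, and 63.7% of those genes had a positive log2 fold change. Without the matching shares it cannot be said whether these counts set the members apart.

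**Figure D4:**
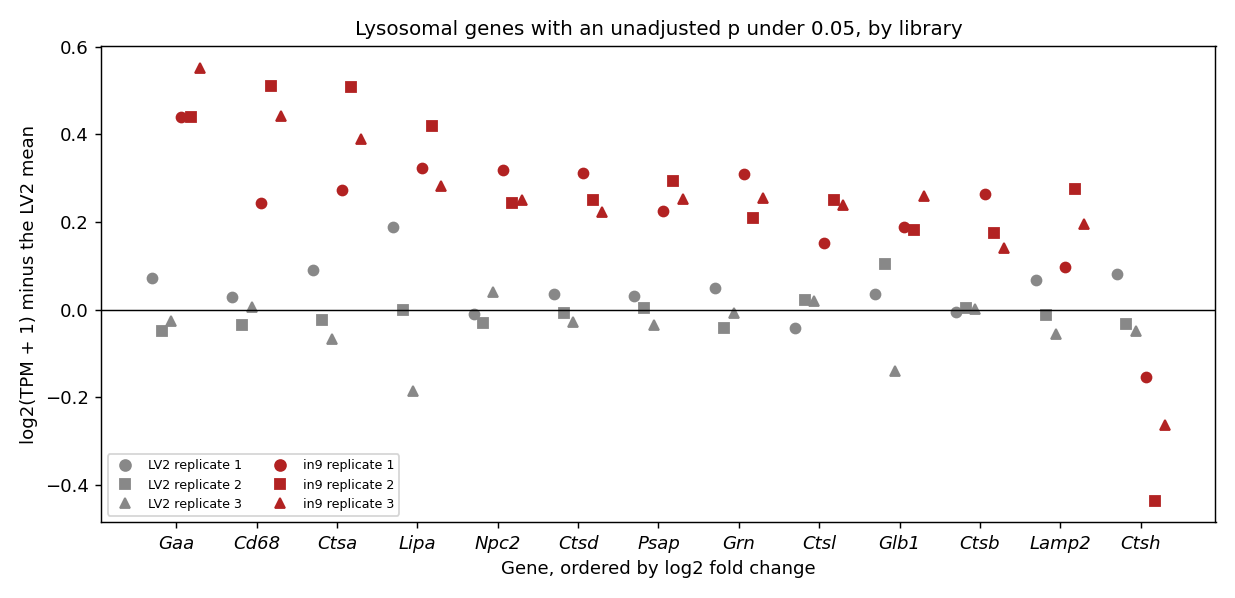
Difference of log2(TPM + 1) from the LV2 mean (y axis) in each library for the 13 lysosomal genes with an unadjusted p under 0.05 (x axis), with LV2 in grey, in9 in red and the replicate as the marker shape. The groups do not overlap for any of the 13, which were picked by p in these same libraries. In9 replicate 1 is the highest in9 point for Npc2, Ctsd, Grn and Ctsb and the lowest, or tied for it, for 6.

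Lists of other genes of the lysosomal system gave the setting of these values. Over all tested genes, 0.821% were called higher, 13.6% were higher at an unadjusted p under 0.05, 63.7% were positive and the median was 0.06. Of 28 tested lysosomal hydrolases and helpers outside the members, 1 rose (3.57%) and none fell, and 7 passed an unadjusted p of 0.05 with positive values (25%). A positive sign was seen in 23 (82.1%), with a median of 0.17, and of 0.097 after trimmed-mean scaling. The gene that rose was Gm2a, the activator protein that presents ganglioside GM2 to hexosaminidase A, from 18.2 ± 0.69 to 25.4 ± 1.39 TPM (SD, n = 3; log2 fold change 0.45 ± 0.07 SE, adjusted p = 0.0453 in limma). It lost the call after trimmed-mean scaling and when any library except in9 replicate 1 was left out. The carboxypeptidase gene Scpep1 was at 78.5 ± 0.60 and 89.8 ± 1.21 TPM (adjusted p = 0.0774 in limma).

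Of the proton pump that acidifies the lysosome, none of the 17 tested subunit genes was called in limma, 1 was higher at an unadjusted p under 0.05 (5.88%; Atp6v1a, 0.20 ± 0.08), and the median was 0.04, below that of all genes. After trimmed-mean scaling that median was -0.04. The smallest p-values after Atp6v1a belonged to Atp6v0e (0.13) and Atp6v0d1 (0.11). Of 19 tested other membrane proteins of the lysosome none was called, while 3 had positive (15.8%) and 1 a negative difference (5.26%, against 5.86% of all genes) at an unadjusted p under 0.05. Their median was 0.07. Among them Sidt2 and Cd164 had log2 fold changes of 0.25 and 0.22, and Hgsnat, the acetyltransferase of heparan sulfate breakdown, -0.29 (adjusted p = 0.131 in limma).

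Genes that tag and sort lysosomal proteins had 21 of 23 positive values (91.3%), with a median of 0.09, and of 0.007 after trimmed-mean scaling. None passed the adjusted test in limma, with 2 higher at an unadjusted p under 0.05, or 8.7%, below the share over all genes (the adaptor subunit Ap3d1, 0.24, and the tethering factor Vps41, 0.17) and the sorting receptor Sorl1 next (0.30). Of 16 tested genes of the TFEB relatives and of mTORC1 signalling at the lysosome none was called and none had an unadjusted p under 0.05. The smallest p-values there belonged to Lamtor5 (-0.15), Mtor (0.18) and Lamtor4 (0.13), and the median was 0.04 (-0.036 after trimmed-mean scaling). Of 24 tested autophagy genes none was called in limma, and 6 passed an unadjusted p of 0.05 with positive values (25%). The autophagy median was 0.14, and 0.064 after trimmed-mean scaling. The autophagy receptor genes Calcoco1 and Nbr1 came closest, at 7.37 ± 0.93 and 12.4 ± 0.88 TPM (0.68 ± 0.11, adjusted p = 0.051) and at 36.6 ± 2.10 and 48.2 ± 2.43 TPM (adjusted p = 0.0576), followed by the LC3-family gene Gabarapl1 (0.35, adjusted p = 0.0633). Without in9 replicate 1, 3 autophagy genes were called higher, with 7.25% of all genes.

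The cystatins, which block cysteine cathepsins, were not called in limma, and none of the 4 tested had an unadjusted p under 0.05. Cstb was at a mean of 294 ± 12.5 TPM (SD, n = 3) in LV2 against 277 ± 27.9 TPM in in9. Stfa3 and Cst6 had log2 fold changes of 0.29 ± 0.43 and -0.06 ± 0.31.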

How the data were processed

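TPM values with 2 decimals were deposited by the authors for 6 libraries, with a mean per group. The genome was mm10 per the submitters' processing notes. The aligner, quantifier, annotation and strand setting were not given in the sources used here. Depth is unknown, so no count model was used. The 13406 genes whose mean TPM reached 1 were compared as log2(TPM + 1), in9 minus LV2, using limma 3.58.1 (R 4.3.3) with an intensity trend and no replicate block. The test was two-sided, with Benjamini-Hochberg adjustment over all these genes and calls under 0.05. Such fold changes understate the change of low genes. The procedure was tested on simulated data, in 10 runs with 200 of 13406 genes changed. The changed genes were drawn only from those with a mean level above about 5 TPM, so recovery at lower levels was not measured. The procedure recovered 61.7% of the 1.5-fold and 87.5% of the 2-fold changes, and 6.5% of its calls were false. The simulated noise was independent between libraries, and no simulated library stood apart. Smaller changes were not simulated, and Gaa, the largest of the tested members, had a ratio of means of 1.41. No list was tested. Positions and 3' UTRs came from GENCODE M21, promoters and miR-9 from RefSeq. The listed Tmem55b was found as Pip4p1. By rule, every member was named, with values in every library for called members, those with an unadjusted p under 0.05, the 5 most abundant and both regulators, and from other lists the called genes and the 3 smallest p-values. One gene that this rule names is not reported here. M6pr, Npc1 and Mcoln1 were given in full outside this rule, after their values were seen. Members and lists were chosen with earlier results of these data known. The alternatives changed the pseudocount (0.1), the filter (none, or a mean of 5 TPM), the scaling (trimmed mean with 30% of log ratios and 5% of levels trimmed, quantile, or no mitochondrial transcripts), the trend, library weights, a replicate block, or left out each library.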

Additional observations from a re-analysis of the deposited data

How the results depend on the processing

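Of 449 comparisons of a member with an alternative, 392 kept the direction and the side of the threshold, 26 lost a call, 22 gained one and 9 changed sign. Of all 30 tested members 26 kept their sign in every alternative run, the 13 with an unadjusted p under 0.05 among them. Those 13 were picked by p in the same libraries, so this is no separate check of them. The count of members higher, 3, was 0 without a filter, 0 without the intensity trend, 1 after trimmed-mean scaling, 5 after quantile normalization, 5 without mitochondrial transcripts and 11 with library weights (1 lower there). In the same order, 0.0921%, 0.201%, 0.328%, 0.761%, 0.948% and 8.7% of all genes were called higher. With library weights 3.9% of all genes were lower. With the replicate block the count of members higher was 0, and the whole table then held 1 higher and 1 lower gene, in a fit with fewer residual degrees of freedom. The labels do not say whether same-numbered libraries were paired. Their deviations from the group means correlated at -0.10, 0.02 and -0.05, which with 3 libraries per group cannot settle it. Leaving out 1 library gave 0 to 10 higher and 0 to 1 lower members, with 0.0448% to 7.25% of all genes higher and 0.00746% to 3.8% lower. Over all genes the counts of 110 higher and 26 lower were 24 and 6 without a filter, 44 higher after trimmed-mean scaling, 27 and 4 without the trend, 1166 and 523 with library weights, and 45 lower at a minimum mean TPM of 5, and 6 to 971 higher and 1 to 509 lower without 1 library.

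In the other lists, library weights gave 1 of 17 proton pump genes, 5 of 28 other hydrolases and 2 of 19 other membrane proteins higher (and 1 lower). The same weights gave 1 of 23 sorting genes and 4 of 24 autophagy genes higher, in a fit that called 8.7% of all genes higher and 3.9% lower. Leaving out 1 library gave, in the same order, 0 to 1, 0 to 2, 0 to 2, 0 to 1 and 0 to 3. The upper counts came without in9 replicate 1, where 7.25% of all genes were higher. The 1 other hydrolase was 0 without a filter, after trimmed-mean scaling, without the trend and with the replicate block. Autophagy genes called were 1 with a pseudocount of 0.1, 2 at a minimum mean TPM of 5, 1 after quantile normalization and 1 without mitochondrial transcripts. Those fits called 0.761% to 1.42% of all genes higher. The median of the members, 0.19, was 0.108 with trimmed-mean scaling and 0.112 with quantile normalization. The ratio of summed TPM, 1.11, was 1.05 after trimmed-mean scaling, 1.12 without mitochondrial transcripts and 1.07 without Ctsl. Signs changed for Lamp1 (-0.061, trimmed-mean scaling), Gusb (-0.068 with that scaling, -0.022 after quantile normalization, and -0.005 to 0.045 without 1 library), Ppt1 (0.008 with library weights and -0.051 to 0.013 without 1 library) and Tfeb (-0.050, quantile normalization), none of them called. The cause of these changes between settings was not tested. Depth is unknown, so counting error could not be set beside the values of low genes such as Tfeb and Lipa.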
